A study of Mus musculus with 6 samples.

Results

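The transcripts described here are 8 messenger RNAs encoded by mitochondrial DNA, mt-Nd1, mt-Nd2, mt-Nd4, mt-Cytb, mt-Co1, mt-Co2, mt-Co3 and mt-Atp6. They were chosen by name, as 8 of the 32285 gene symbols in a table of UMI counts (counts of distinct captured molecules) from single cells of mouse sciatic nerve. They are 8 of the 13 protein-coding genes of mitochondrial DNA in that table and held 26617 of its 28725 mitochondrial UMIs (92.7%). The cells came from nerves of C57BL6/J mice aged 23 weeks and fed either SD or HFD, the labels' names for the diets. The nerves were digested and Schwann cells, the glia of peripheral nerve, were enriched with magnetic beads against the surface antigen O4. Counts were analysed for 364 cells in 5 droplet libraries. The 3 SD libraries held 80, 81 and 40 cells and the 2 HFD libraries held 57 and 106. A further labelled library, HFD replicate 3, was not analysed here, and the labels do not say whether libraries came from separate animals or from pooled nerves.

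Mitochondrial DNA is a small circle with several copies in each mitochondrion, and its protein-coding genes all specify subunits of the respiratory chain or of ATP synthase. Transcription yields long precursors that are cut into separate messenger RNAs, mostly at the transfer RNAs that lie between them, and a short poly(A) tail is then added. The level of each messenger RNA therefore depends on its own stability as well as on the shared transcription. mt-Nd1, mt-Nd2 and mt-Nd4 encode core membrane subunits of complex I (NADH dehydrogenase). mt-Cytb encodes cytochrome b of complex III, and mt-Co1, mt-Co2 and mt-Co3 encode the core of complex IV (cytochrome c oxidase). mt-Atp6 encodes a membrane subunit of complex V (ATP synthase). The remaining subunits of these complexes come from nuclear genes.

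The library chemistry primes on poly(A) and counts the 3′ end of each transcript, so the last 60 bases, read 5′ to 3′ on the transcribed strand, are shown for the members on which the results turn, with the final letters that stand for the stop codon in capitals. Sequences and coordinates are from the GENCODE M21 annotation of GRCm38 (mm10). mt-Co1 lies at chrM:5328-6872, mt-Co3 at chrM:8607-9390, mt-Cytb at chrM:14145-15288, mt-Co2 at chrM:7013-7696 and mt-Atp6 at chrM:7927-8607, all single-exon genes on the + strand.
mt-Co1: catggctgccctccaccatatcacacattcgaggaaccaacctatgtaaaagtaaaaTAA
mt-Co3: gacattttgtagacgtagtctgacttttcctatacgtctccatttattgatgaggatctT
mt-Cytb: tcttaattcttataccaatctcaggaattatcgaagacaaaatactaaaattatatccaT
mt-Co2: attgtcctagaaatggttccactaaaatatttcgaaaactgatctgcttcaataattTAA
mt-Atp6: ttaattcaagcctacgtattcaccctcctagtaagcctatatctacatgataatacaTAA
mt-Co1, mt-Co2 and mt-Atp6 end in a complete TAA. mt-Co3 and mt-Cytb end in a lone T, which is completed to a stop codon when the poly(A) tail is added, and mt-Nd4 also ends in T. mt-Nd1 and mt-Nd2 end in TAG. mt-Atp6 overlaps mt-Co3 by 1 base and mt-Atp8 overlaps mt-Atp6 by 43 bases on the same strand. Nuclear DNA holds near-identical copies of some of these ends. The last 300 bases of mt-Co1 matched the pseudogene Gm29216 on chromosome 1 with 0 differences, and the ends of mt-Co2, mt-Co3 and mt-Atp6 matched neighbouring chromosome 1 pseudogenes (Gm28661, Gm28437 and Gm10925) with 0 differences over 297, 299 and 297 bases. The end of mt-Cytb was 92.6% identical to its best nuclear match, Gm11410 on chromosome 4, with 22 differences. None of these pseudogenes is a row of the count table, and how reads with both origins were counted is not given in the sources used here.

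The authors placed the cells in 5 numbered clusters, and the markers of clusters 2, 3 and 4 went against their deposited names. Cluster 0 (143 cells, deposited as macrophages) carried all 10 macrophage markers, at 32920 to 45109 CPM (UMIs scaled to a common library total) summed over the list in its 5 libraries. Cluster 2 (60 cells, deposited as SCP) carried all 10 markers of myelinating Schwann cells at 32394 to 59728 summed CPM and at most 134 summed CPM of macrophage markers, with Csf1r and Aif1 at 0. Cluster 4 (24 cells, deposited as nmSC) carried all 7 fibroblast markers at 19089 to 68051 summed CPM. Of 7 nonmyelinating Schwann markers 3 had UMIs, at 81.3 to 584 summed CPM, and 9 of 10 myelinating Schwann markers were at 0. All 6 endothelial markers had UMIs there, at 0 to 3676 summed CPM. Cluster 1 (92 cells, deposited as mySC) held 72 cells with mainly myelin markers and 10 with mainly macrophage markers. The 3 cells of cluster 1 rich in the neutrophil gene S100a9 were among those 10, and 1 further cell was rich in haemoglobin. Cluster 3 (45 cells, deposited as repairSC) had UMIs of 2 of 6 repair Schwann markers, at 0 to 178 summed CPM in 3 libraries. Of 7 nonmyelinating Schwann markers 4 had UMIs there, at 20282 to 65097 summed CPM. Macrophage markers ran from 0 to 33272, and neutrophil markers stood at 45562 CPM pooled over all its cells. In 36 of its barcodes the last 9 bases recurred in at least 5 barcodes of the cluster. Clusters are therefore called by number. Depth ran from 37744 to 349450 UMIs per library, and the median cell had 1064 UMIs in cluster 0, 626.5 in cluster 1, 4230 in cluster 2, 261 in cluster 3 and 2693 in cluster 4. No barcode was shared between libraries (0 of 364). The clusters were made by the authors from the same cells, and whether the mitochondrial genes entered the clustering is not given, so differences between clusters are descriptions rather than independent tests.

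Every deposited cell lay under 5% in the mitochondrial share of its UMIs, so the files show only the lower part of that distribution. The deposited share, which equals the share of the 13 genes recomputed from the counts, had a median of 2.14% and a highest value of 4.97%. Cells lay close up to that limit, with 14 cells from 4.5% to 5%, 30 from 4% to 4.5%, 29 from 3.5% to 4% and 36 from 3% to 3.5%. At the other end, 67 cells lay under 0.5%, and 40 cells had no UMI of any of the 8 members. Those 40 cells had a median of 441.5 UMIs in all. Clusters 0 and 2 had nearly the same median share, 2.64% and 2.63%, and cluster 4 had 2.28%. Cluster 1 was lower at 1.42%, and cluster 3 was lowest at 0.324%, with 29 of its 45 cells under 1%. Across cells the share and the UMI total, which is also its denominator, had a Spearman correlation of 0.250 over all 364 cells, 0.084 over the 143 cells of cluster 0 and -0.295 over the 60 cells of cluster 2.

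**Figure D1:**
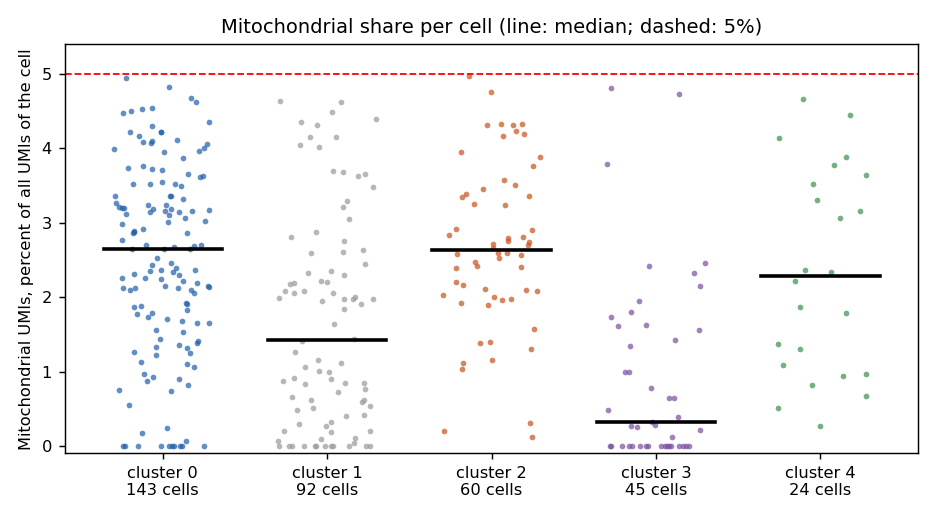
Mitochondrial share of the UMIs of each cell (percent, 13 genes) by deposited cluster, with 1 point per cell and the median as a black line; the dashed line marks 5%. Cells of all 5 clusters reach above 4.5% and none of the 364 cells passes 5%, and the medians are 2.64%, 1.42%, 2.63%, 0.324% and 2.28% for clusters 0 to 4.

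Summed over the 8 members, the share of all UMIs in cluster 0 was 2.76%, 2.46% and 2.48% in SD replicates 1 to 3 and 2.53% and 2.48% in HFD replicates 1 and 2, or 2.54% ± 0.127 (standard deviation, as for each ± below; n = 5 libraries). Cluster 2 was at 2.50%, 1.83%, 2.60%, 2.32% and 2.48% in the same order, or 2.35% ± 0.305. The libraries of the 2 clusters overlap, and the difference was within their spread (two-sided exact sign-flip test over libraries, p = 0.25, Benjamini-Hochberg (BH) adjusted over 9 cluster pairs 0.375). With 5 libraries, and only cells under 5%, the test does not show that the sums are equal. Cluster 1 was at 2.19%, 1.45%, 1.61%, 1.49% and 1.50%, or 1.65% ± 0.310, which was below cluster 0 in 5 of 5 libraries. With 5 libraries the smallest p that the test can give is 0.063, and cluster 1 against cluster 0 reached it (exact p = 0.063, adjusted 0.281), so an exact sign-flip test between clusters cannot pass 0.05 here. Cluster 1 held 3 of the 5 cells with at least 100 UMIs of the neutrophil gene S100a9, whose members made up 0.425% of UMIs, and 1 cell with over 30% haemoglobin UMIs and 0.180% of members. Without those cells the gap between clusters 1 and 0 was -0.585 percentage points rather than -0.893. In cluster 3, the 36 barcodes of shared ending held 53 member UMIs (0.532% of their UMIs), while the other 9 cells held 530 (1.37%).

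The 8 transcripts differed several-fold in level. Per kilobase of transcript over all cells, mt-Atp6 was highest at 6390 ± 748 CPM per kilobase (n = 5), followed by mt-Co3 at 5637 ± 711 and mt-Co2 at 5520 ± 374. These 3 overlapped each other between libraries, and each of their libraries lay above every library of the other 5 transcripts. mt-Cytb was at 2146 ± 268 CPM per kilobase, mt-Co1 at 1985 ± 333, mt-Nd2 at 1664 ± 220 and mt-Nd1 at 1567 ± 109, with neighbours overlapping in that order. mt-Nd4 was lowest at 880 ± 113, below each library of mt-Nd1. The chemistry counts transcript ends rather than whole transcripts, so division by length is a convention here. In cells thinned to 500 UMIs, mt-Atp6 had a UMI in 78.3% of the 115 cells of cluster 0 deep enough to thin and in 89.7% of the 58 of cluster 2 (88.7% and 96.6% before thinning). mt-Nd4 was found in 43.5% and 41.4% of the same cells after thinning (73.9% and 96.6% before).

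The make-up of the mitochondrial messenger RNAs differed between cluster 0, with macrophage genes, and cluster 2, with myelin genes. Their summed shares, in cells that all lay under 5%, overlapped between libraries. Each member is given as its percent of the UMIs of the 8 members in a library and cluster. mt-Co1 and mt-Co3 took smaller shares and mt-Cytb a larger share in cluster 2, in 5 of 5 libraries each and with no overlap. The shares of the other 5 members overlapped between the clusters. No rate over other genes was computed for such shares, so these counts are a description only. As CPM, 41.6% of 1669 genes of at least 100 CPM did not overlap between the same clusters.

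For complex III, mt-Cytb made up 8.80%, 8.98% and 4.85% of member UMIs in cluster 0 of SD replicates 1 to 3 and 8.13% and 8.83% in HFD replicates 1 and 2. In cluster 2 it made up 17.8%, 15.1%, 14.4%, 14.9% and 15.7% in the same order. The lowest library of cluster 2 was thus above the highest of cluster 0. The means were 7.92% ± 1.74 and 15.6% ± 1.30 (n = 5), a difference of 7.66 percentage points (two-sided exact sign-flip test, p = 0.063, adjusted 0.667 over the 48 tests of 6 cluster pairs and 8 members). The value of 4.85% in SD replicate 3 rests on 10 mt-Cytb UMIs in 8 cells of cluster 0. Cluster 2 of HFD replicate 1 held only 348 member UMIs in 3 cells, here and in all comparisons below.

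For complex IV, mt-Co1, the catalytic subunit, made up 15.4%, 17.3% and 17.0% of member UMIs in cluster 0 on SD and 15.6% and 15.0% on HFD. In cluster 2 it was at 7.95%, 8.47% and 7.96% on SD and 9.48% and 8.81% on HFD. All 5 libraries of cluster 2 were below all 5 of cluster 0, with means of 8.54% ± 0.641 and 16.1% ± 1.03 (difference -7.52 points, exact p = 0.063, adjusted 0.667). mt-Co3 was at 21.4%, 20.1%, 20.4%, 22.1% and 22.7% in cluster 0 and at 17.0%, 17.9%, 17.2%, 20.1% and 17.3% in cluster 2, in the order of libraries above. Its means were 21.3% ± 1.10 and 17.9% ± 1.27 (difference -3.42 points, exact p = 0.063, adjusted 0.667). HFD replicate 1, with 3 cells in cluster 2, was the library in which the clusters lay closest for mt-Co3, at 22.1% and 20.1%. When each cell with a member UMI counted equally in place of each UMI, the mt-Co3 difference was -0.558 points (exact p = 0.8125). mt-Co2, which carries the copper site that receives electrons from cytochrome c, was at 16.0% ± 0.704 and 17.2% ± 1.90, higher in cluster 2 in 3 of 5 libraries.

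The members of complexes V and I overlapped between the 2 clusters. mt-Atp6 made up 18.3% ± 1.27 in cluster 0 and 20.0% ± 1.74 in cluster 2, higher in cluster 2 in 4 of 5 libraries (exact p = 0.25, adjusted 0.706). mt-Nd1 made up 6.85% ± 0.773 and 6.40% ± 0.676. mt-Nd4 made up 5.76% ± 0.610 and 5.67% ± 1.07. The differences of mt-Nd1 and mt-Nd4 between clusters were smaller than their spread over libraries. mt-Nd2 made up 7.82% ± 2.43 and 8.67% ± 0.570, a difference of 0.850 points (exact p = 0.5625, adjusted 0.789). It was higher in cluster 2 in 4 of 5 libraries, and the exception was SD replicate 3, whose 8 cells of cluster 0 gave 12.1% of 206 member UMIs. The other 4 libraries, picked after the values were seen, had mt-Nd2 at 6.29% to 6.93% in cluster 0 and 7.92% to 9.24% in cluster 2. Their lack of overlap is a description only. With each library left out in turn the mt-Nd2 difference ran from 0.481 to 1.92 points. The 1.92 points came without SD replicate 3 (exact p = 0.125, the smallest that 4 libraries allow, adjusted 0.6).

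**Figure D2:**
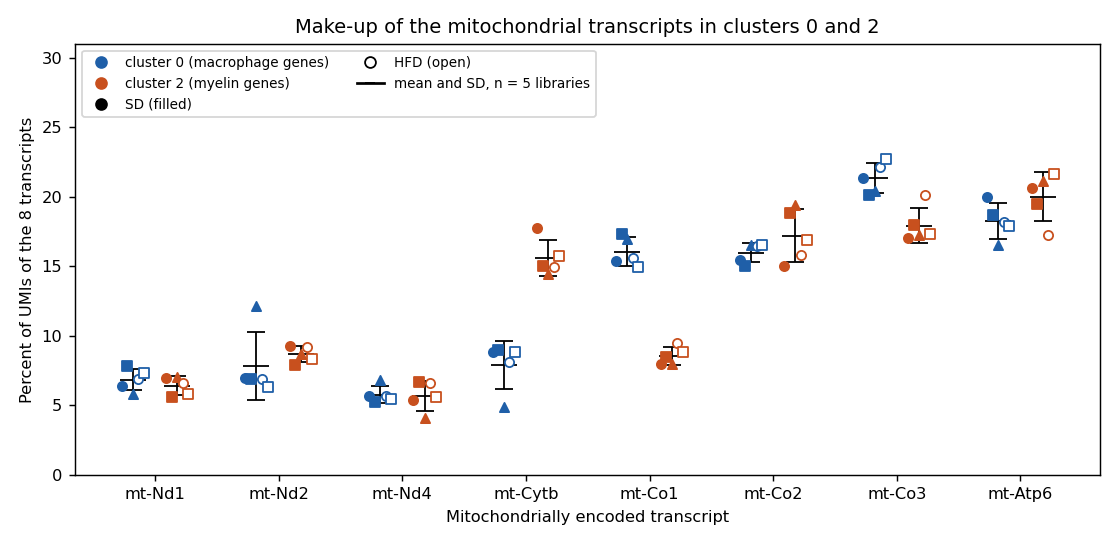
Percent of the UMIs of the 8 transcripts held by each transcript in cluster 0 (blue) and cluster 2 (orange), with 1 point per library (circles, squares and triangles for replicates 1, 2 and 3; filled SD, open HFD) and the mean and standard deviation of 5 libraries in black. mt-Cytb lies at 4.85% to 8.98% in cluster 0 and 14.4% to 17.8% in cluster 2, mt-Co1 lies at 15.0% to 17.3% and 7.95% to 9.48%, and the other members lie closer together.

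Since shares of a fixed sum move against each other, the same members were also read as levels. mt-Co1 stood at 4075 ± 240 CPM in cluster 0 and 2001 ± 266 CPM in cluster 2 (n = 5), a log2 difference of -1.04 ± 0.27 between the clusters of a library (log2 of CPM + 1). mt-Cytb stood at 2017 ± 473 and 3666 ± 616 CPM, a log2 difference of 0.88 ± 0.48. mt-Co3 stood at 5427 ± 404 and 4199 ± 536 CPM, a log2 difference of -0.38 ± 0.17. mt-Co2 and mt-Atp6 differed by -0.02 ± 0.20 and 0.01 ± 0.33. The CPM of 3 of the 8 members did not overlap between the clusters, against 41.6% of the 1669 genes of at least 100 CPM, so the count of members that separate these clusters is near that of genes at large. Of the 5 other mitochondrial genes, which were not members, mt-Nd3 took 3.16% ± 0.623 of the 13 genes' UMIs in cluster 0 and 5.35% ± 0.749 in cluster 2 with no overlap. mt-Nd4l took 0.684% ± 0.423 and 1.92% ± 0.886, higher in cluster 2 in 5 of 5 libraries.

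The ratio of mt-Cytb to mt-Co1 UMIs put the difference in 1 value per library. It was 0.573, 0.519 and 0.286 in cluster 0 on SD and 0.520 and 0.589 on HFD. In cluster 2 it was 2.23, 1.78 and 1.81 on SD and 1.58 and 1.78 on HFD. Every library thus had more mt-Co1 than mt-Cytb in cluster 0 and the reverse in cluster 2. This held on both diets and for both folder project numbers, which were read as sequencing runs. Single cells showed the same order. Among cells with at least 20 member UMIs, 46 of 55 in cluster 2 held more mt-Cytb than mt-Co1 UMIs, against 9 of 78 in cluster 0. In each of the 5 libraries at least 66.7% of such cluster 2 cells did so, and in each of the 4 libraries with at least 3 such cells in cluster 0 at most 15.0% did. HFD replicate 1 had only 3 such cells in cluster 2.

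**Figure D3:**
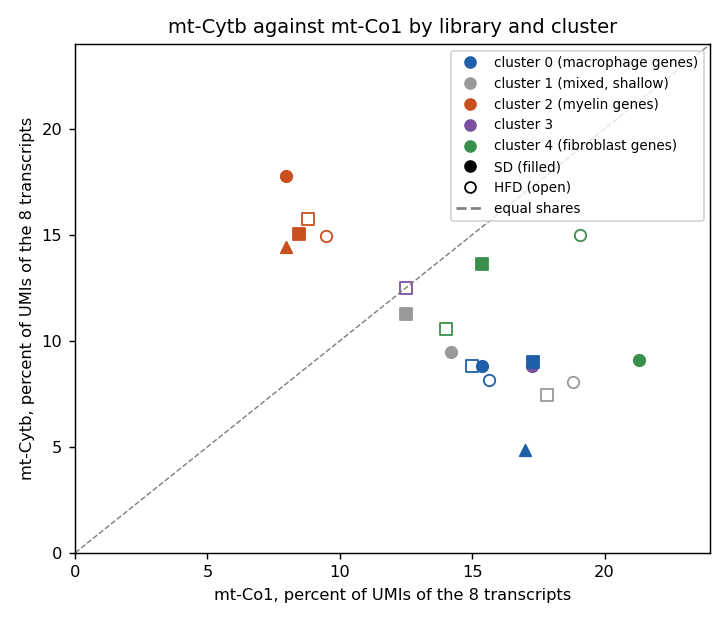
mt-Cytb against mt-Co1, each as percent of the UMIs of the 8 transcripts, with 1 point per library and cluster of at least 100 member UMIs (colour for cluster, marker shape for replicate, filled SD, open HFD); the dashed line marks equal shares. The 5 points of cluster 2 lie above the line and the points of clusters 0, 1 and 4 below it, while of 2 points of cluster 3 that of SD replicate 1 (2 cells, partly behind a point of cluster 0) lies below it and that of HFD replicate 2 (19 cells, 12.5% for both) on it.

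The 2 clusters differed in depth, so the shares were compared at like depth and under another grouping of cells, both chosen after the values were seen. Among cells of 2000 to 6000 UMIs, pooled over libraries, mt-Co1 made up 16.4% of 775 member UMIs in 8 cells of cluster 0 and 8.58% of 5057 in 48 cells of cluster 2. mt-Cytb made up 8.90% and 16.3% in the same cells. Above 6000 UMIs mt-Co1 was at 15.6% and 7.60% and mt-Cytb at 8.48% and 16.0% (55 and 6 cells). Few shallow cells of cluster 2 could be compared. From 500 to 2000 UMIs mt-Co1 was at 13.4% of 766 and 8% of 75 member UMIs (52 and 4 cells), and mt-Cytb was closer at 8.62% and 10.7%. Under 500 UMIs the 2 cells of cluster 2 held 8 member UMIs, none of them mt-Co1 or mt-Cytb. When cells were grouped by marker lists alone, with at least 5 UMIs of one list and at least 4 times those of the other, 138 cells carried macrophage markers and 133 carried myelin markers. mt-Co1 then made up 16.3% ± 1.02 and 9.17% ± 0.753, and mt-Cytb 7.75% ± 1.93 and 15.0% ± 1.03 (n = 5 libraries; each exact p = 0.063, adjusted 0.125 over 8 members). Of the 138 cells with macrophage markers 124 were in cluster 0, and the rest included S100a9-rich cells of clusters 1 and 3. Of the 133 cells with myelin markers 72 were in cluster 1 and 58 in cluster 2. Those 58 cells gave 5882 of the 6846 member UMIs of the myelin group. The marker groups are thus not independent of clusters 0 and 2.

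Not all cells with myelin markers had the make-up of cluster 2. The 72 cells of cluster 1 with myelin markers, at a median of 576.5 UMIs, held 890 member UMIs, of which mt-Co1 made up 13.1% and mt-Cytb 10.4%. The 58 cells of cluster 2 with myelin markers, at a median of 4306 UMIs, had 8.45% and 16.2%. The members took 1.42% of UMIs in the first set and 2.36% in the second. The shallow cells of cluster 1 thus lay between clusters 2 and 0, and the part of depth in this was not tested. A further 10 cells of cluster 1 carried macrophage markers and gave 1986 of the 3002 member UMIs of that cluster, with mt-Co1 at 17.6% and mt-Cytb at 7.86%. These 10 cells include the S100a9-rich cells of that cluster. Cluster 1 as a whole was near cluster 0, at 15.8% ± 2.97 for mt-Co1 and 9.07% ± 1.70 for mt-Cytb (n = 4 libraries).

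Cluster 4, with fibroblast genes, had mt-Co1 at 17.4% ± 3.35 and mt-Cytb at 12.1% ± 2.71 (n = 4). Its mt-Co1 share was above that of cluster 2 in 4 of 4 libraries, by 8.75 percentage points (exact p = 0.125, the smallest that 4 libraries allow, adjusted 0.667). Against cluster 0 it was higher in 2 of 4 libraries. Its mt-Cytb share was above that of cluster 0 in 4 of 4 libraries, by 3.38 points (exact p = 0.125, adjusted 0.667), and below that of cluster 2 in 3 of 4. Without HFD replicate 1 the difference from cluster 0 was 2.22 points, and without the other libraries in turn it was up to 4.41 points. The low mt-Co1 share of cluster 2 was thus seen against clusters 0, 1 and 4 alike. The 5 neutrophil-like cells had mt-Co1 at 30.1% of only 156 member UMIs.

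Members were then set against the nuclear-encoded subunits of the same complex, summed in the same cells, as the log2 ratio of mitochondrial to nuclear UMIs with 0.5 added to each. For complex III, mt-Cytb against 9 nuclear genes stood at 0.83, 0.61 and -0.74 in cluster 0 on SD and at 0.85 and 0.72 on HFD. In cluster 2 it stood at 1.61, 1.57, 0.76, 1.67 and 2.27 in the same order. The ratio was higher in cluster 2 in 5 of 5 libraries, by 1.12 ± 0.37 (two-sided exact sign-flip test, p = 0.063, adjusted 0.125 over 4 complexes). The nuclear genes of complex III were themselves at 1464 ± 347 CPM in cluster 0 and 1292 ± 571 in cluster 2, which overlap. For complex I, mt-Nd1, mt-Nd2 and mt-Nd4 against 36 nuclear genes were at 0.51 ± 0.18 in cluster 0 and 0.09 ± 0.39 in cluster 2, lower in 5 of 5 libraries (mean difference -0.42 ± 0.52, exact p = 0.063, adjusted 0.125). The smallest of those 5 differences was -0.05. For complex IV, mt-Co1, mt-Co2 and mt-Co3 against 11 nuclear genes were at 1.96 ± 0.28 and 1.68 ± 0.22, lower in cluster 2 in 4 of 5 libraries (exact p = 0.1875, adjusted 0.25). For complex V, mt-Atp6 against 16 nuclear genes was at 0.65 ± 0.29 and 0.71 ± 0.35 (exact p = 0.875). The ratios of complexes I and IV changed sign when cells counted equally, while that of complex III did not under any alternative run.

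**Figure D4:**
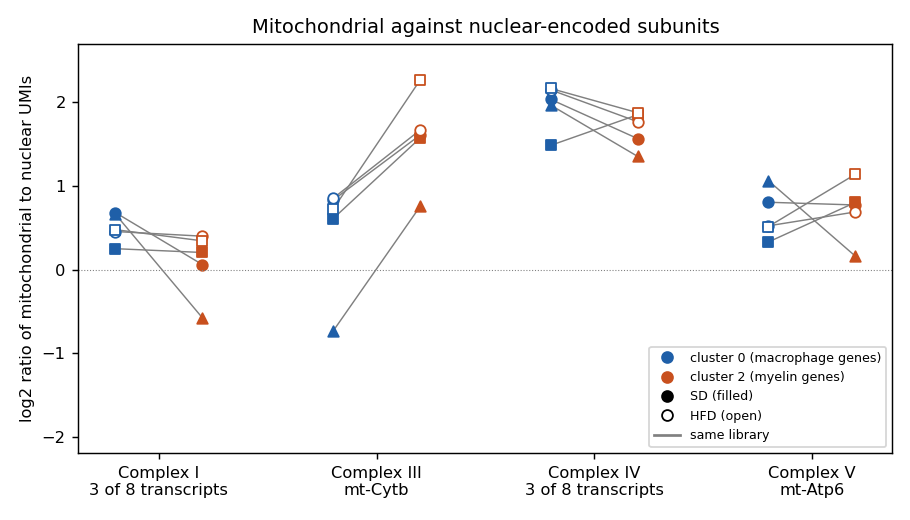
Log2 ratio of mitochondrial to nuclear-encoded UMIs of each respiratory complex in cluster 0 (blue) and cluster 2 (orange), with 1 line per library (circles, squares and triangles for replicates 1, 2 and 3; filled SD, open HFD). The 5 lines of complex III rise from cluster 0 to cluster 2 by 0.78 to 1.55, and the lines of complexes IV and V cross.

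Between diets no member passed the test. Over all cells mt-Co1 stood at 3947, 3074 and 2305 CPM (normalised in edgeR) on SD and 4783 and 3409 on HFD. Its 2 HFD values straddle the highest SD value, and its log2 fold change was 0.39 (SE 0.38, edgeR quasi-likelihood test, adjusted p = 0.954). That fold change was 0.17 without HFD replicate 1, 0.21 without SD replicate 3 and 0.68 without HFD replicate 2. Log2 fold changes of the other 7 members ran from -0.05 for mt-Nd2 to 0.32 for mt-Co3. None of the 8 members was called at an adjusted p under 0.05, where 0.0907% of 5510 genes were (5 genes), and none had an unadjusted p under 0.05. The median fold change of the members was 0.18 and that of all genes 0.02, both on the log2 scale. With library totals in place of TMM they were 0.03 and -0.10. The members' median was 0.07 without SD replicate 3, 0.12 without HFD replicate 1, 0.28 without SD replicate 1 and 0.37 without HFD replicate 2. The all-cell values sum over cell types, so a change in the mix of cells and a change within cells cannot be told apart there. Within clusters none of the 8 members was called either, nor had an unadjusted p under 0.05, in cluster 0 (0.0434% of 2302 genes called), cluster 1 (7.93% of 656), cluster 2 (0% of 1019) or cluster 4 (0% of 327). The 52 genes called in cluster 1 fell to 1 of 404 tested without its neutrophil-like and haemoglobin-rich cells.

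**Figure D5:**
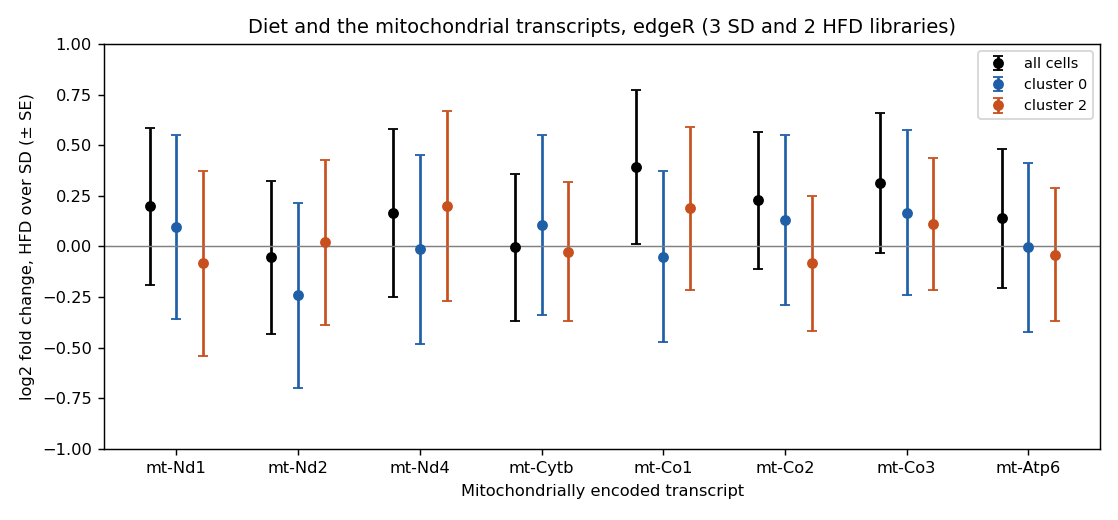
Log2 fold change of each transcript, HFD over SD, with its standard error, from edgeR fits of UMI counts summed per library over all cells (black), cluster 0 (blue) and cluster 2 (orange). The estimates lie between -0.24 and 0.39, and each error bar but that of mt-Co1 over all cells reaches across 0.

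As a share of all UMIs, the 8 members together stood at 2.54%, 2.04% and 2.14% on SD, and HFD lay inside that range at 2.23% and 2.31% (2.24% ± 0.270, n = 3, and 2.27% ± 0.0587, n = 2; two-sided exact permutation p = 1). With 3 against 2 libraries the smallest p is 0.1, so no test of this kind can pass 0.05. The shares of 3 of the 8 members in the member total did not overlap between diets over all cells. No rate over other genes was computed for such shares, so the count is a description only. mt-Cytb made up 11.2%, 11.5% and 11.8% on SD and 9.04% and 11.0% on HFD (exact permutation p = 0.1, adjusted 0.533 over 8 members). mt-Co3 made up 19.9%, 18.4% and 18.5% on SD and 20.6% in both HFD libraries (exact p = 0.2, adjusted 0.533), and mt-Nd2 made up 7.31%, 7.88% and 9.68% against 6.95% and 6.74% (exact p = 0.2, adjusted 0.533). The mt-Cytb difference, HFD minus SD, was -1.49 points, -0.505 without HFD replicate 1 and -2.47 without HFD replicate 2. That of mt-Nd2 was -1.45 points, and -0.755 without SD replicate 3. The differences were also taken within each folder project number, read as sequencing runs 1 and 2. They were -2.33 and -0.780 points for mt-Cytb, 1.45 and 2.14 for mt-Co3 and -0.649 and -2.94 for mt-Nd2. As CPM of all UMIs, 1 of 8 members (mt-Nd2) did not overlap between diets, against 26.6% of 1593 genes of at least 100 CPM. Marker levels also differed between libraries. HFD replicate 1, with the lowest mt-Cytb share, had 3199 summed CPM of myelin markers and 24293 of macrophage markers. The other 4 libraries had 15563 to 38655 and 9935 to 22532. HFD replicate 2, with the lowest mt-Nd2 share, had 15563 and 18179. All 5 neutrophil-like cells (4 and 1) and the haemoglobin-rich cell came from HFD libraries, so neutrophil markers summed to 11953 and 6168 CPM in HFD replicates 1 and 2 and at most 26.5 on SD. Erythroid markers stood at 66213 CPM in HFD replicate 1 and 0 in the other 4 libraries. Without those cells the differences were -1.45 points for mt-Cytb, 1.69 for mt-Co3 and -1.41 for mt-Nd2. The part of macrophage and myelin cells in the all-cell shares was not tested. Within cluster 0 mt-Cytb was at 7.55% ± 2.33 on SD and 8.48% ± 0.496 on HFD, and within cluster 2 at 15.7% ± 1.76 and 15.3% ± 0.552, overlapping in both. In 2 of the 16 comparisons of a member within cluster 0 or 2 the diets did not overlap. That count also has no rate over other genes beside it and is not read as a diet effect. Within cluster 0 mt-Co3 was at 20.6% ± 0.641 on SD and 22.4% ± 0.418 on HFD (exact permutation p = 0.2, adjusted 0.8), in the same direction as over all cells. Within cluster 2 mt-Co1 was at 8.13% ± 0.297 on SD and 9.15% ± 0.474 on HFD, with 3 and 2 libraries (exact permutation p = 0.1, adjusted 0.8). HFD replicate 1 held only 3 cells of cluster 2. The within-cluster shares by diet were computed after the all-cell values were seen.

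Other genes of the pathway gave no call between diets either. Over all cells, of 5 other mitochondrial genes 3 lay above and 2 below SD, of 35 nuclear complex I genes tested 14 above and 21 below, and of 9 complex III genes 2 above and 7 below. Of 11 complex IV genes 4 lay above and 7 below, and of 16 complex V genes 9 above and 7 below. None passed the test or had an unadjusted p under 0.05. The lowest p in complex I was that of Ndufab1, the mitochondrial acyl carrier protein, at a log2 fold change of -1.19 (SE 0.63, adjusted p = 0.943). In complex III Uqcrfs1, the Rieske iron-sulfur protein, was at -0.88 (SE 0.63), in complex IV Ndufa4 was at 0.70 (SE 0.53), and in complex V Atp5c1, the gamma subunit, was at -0.63 (SE 0.60). Of 27 genes for the transcription, processing and translation of mitochondrial DNA, 4 had enough counts to test, Slirp, Hsd17b10, Mtpap and Ssbp1, with fold changes from -0.12 to 0.32.

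Over 12 sums of at least 10 cells of a library and cluster, the members' levels (log2 of CPM + 1) had Pearson correlations from 0.623 for mt-Co1 with mt-Nd2 to 0.999 for mt-Co2 with mt-Atp6. The 7 lowest of the 28 pairs were those of mt-Co1. Of 1620 other genes of at least 100 CPM, those most like the summed members were Cd63 at 0.981, Timp2 at 0.978, Bzw1 at 0.978, Gsk3b at 0.976 and Tra2a at 0.974. These are descriptions over sums that share libraries, depth and the low mitochondrial share of cluster 3. Among the 12 sums, that of cluster 3 in SD replicate 3 held only 10 member UMIs in 19 cells. Of these, mt-Co1 had 5, while mt-Co2, mt-Atp6, mt-Cytb and mt-Nd4 had 0. The part of that sum in the low correlations of mt-Co1 and in the ranking of other genes was not tested.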

How the data were processed

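Single-cell 3′ v2 libraries of O4-enriched sciatic nerve cells are the source of the data, with Cell Ranger 3.1.0 and mm10 named in the submitters' processing notes. Raw counts of UMIs were deposited, with the mitochondrial percent of each cell and labels of diet, library and cluster. The percent that the authors deposited was recomputed from the 13 mitochondrial genes. The sources used here do not give cell filters, doublet treatment or multi-mapping rules, and no doublet caller was run. Libraries named Ctrl in the files were taken as SD, since files and labels hold 2 diets and share HFD. Folder project numbers were read as sequencing runs. Nothing says that libraries are separate animals, so a p-value here covers only the spread of these libraries, possibly technical.

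The members and gene lists were chosen with earlier results of these data known. Genes named from the lists are up to 3 per list of lowest p in the all-cell diet fit; not all are printed. Genes without a row in the table (Ndufb1, Atp5pb, Fastkd4, Mcpt5) were left out.

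Counts were summed per library, and per library and cluster with at least 3 cells, and tested by diet with edgeR 4.0.16 under R 4.3.3 (low counts removed by filterByExpr, TMM scaling, robust quasi-likelihood test, BH over all genes tested, threshold 0.05), after testing on simulated counts. In the simulated counts over all cells, 26.8% and 37.5% of genes changed by log2 -2 and 2 were called. At -4 and 4 it was 83.3% and 100%. In cluster 0 the values at -2 and 2 were 52.2% and 88.6%. These cover genes of all levels, and smaller changes can go uncalled. Cluster 3 was not tested, with 1 HFD library of at least 3 cells. Shares of member UMIs needed at least 100 member UMIs per library and cluster and were compared by exact tests over libraries. Standard errors of fold changes are the fold change over the square root of F and are approximate. CPM outside edgeR use all UMIs. Matches in nuclear DNA were found with BLAST 2.17.0 against annotated transcripts, not the whole genome. Total counts ran from 122 to 24932 UMIs per cell. Alternatives were other scalings, filters, DESeq2 1.42.0, run and replicate terms, left-out libraries and cells, and weighting by cell. Precision is that of 5 libraries.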

Additional observations from a re-analysis of the deposited data

Results flagged for a closer look

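Within cluster 0, SD replicate 3 stood apart from the other 4 libraries in the shares of mt-Cytb (4.85%) and mt-Nd2 (12.1%) of member UMIs, by a gap over 0.71 of the whole range (Dixon's criterion for 5 samples). That library gave 206 member UMIs from 8 cells of cluster 0. SD replicate 1 stood apart in the summed member share of cluster 0, at 2.76% of UMIs. Chance alone marks about 1 in 20 groups in this way.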

How the results depend on the processing

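None of the 8 members was called between diets over all cells or within clusters 0, 1, 2 and 4 under any alternative run, including left-out libraries (0 in each). Without an HFD library, or in cluster 4 without an SD library, 1 library stood for that diet and was assumed to vary like those of the other diet. The cluster 2 minus cluster 0 difference ran from -7.86 to -7.14 points for mt-Co1, -3.78 to -2.93 for mt-Co3 and 7.18 to 8.06 for mt-Cytb with each library left out. That of mt-Nd4 turned to 0.557 without SD replicate 3, 2.87 as a mean over cells and 0.346 in cells of 2000 to 6000 UMIs, and that of mt-Atp6 turned to -0.765 as a mean over cells. The complex ratios (cluster 2 minus cluster 0) turned to 0.014 for complex I and 0.37 for complex IV as a mean over cells, and for complex V to -0.036 without SD replicate 2 and -0.074 without HFD replicate 2. With each library left out they ran from -0.51 to -0.21 for complex I, 1.01 to 1.21 for III, -0.44 to -0.19 for IV and -0.074 to 0.31 for V. Summed shares with each library left out ran from -0.974 to -0.858 points for cluster 1 minus 0, -0.271 to -0.0858 for 2 minus 0, -0.491 to -0.0217 for 4 minus 0 and 0.627 to 0.799 for 2 minus 1.

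Between diets the summed share ran from -0.0708 to 0.184 points with each library left out (-0.0708, -0.0211 and -0.0109 without SD replicate 2, SD replicate 3 and HFD replicate 2), and was -0.0974 in cells of at least 500 UMIs and -0.0626 within run 1. The log2 fold change of mt-Cytb, near 0, turned to 0.00259 with RLE scaling, 0.00153 with DESeq2, 0.16 with no filter, 0.011 with run as a term and 0.060 without neutrophil-like and haemoglobin-rich cells, and ran from -0.086 to 0.080 with libraries left out. That of mt-Nd2 turned to 0.13 with no filter and 0.022 without those cells and ran from -0.16 to 0.13 with libraries left out, and that of mt-Atp6 turned to -0.011 with library totals. Shares by diet (HFD minus SD, points) ran with libraries left out from -0.465 to 0.972 for mt-Co2, -0.160 to 0.116 for mt-Nd1, -0.432 to 0.135 for mt-Nd4 and -1.50 to 0.0841 for mt-Atp6. They turned, as a mean over cells, to -1.98 for mt-Co1, -0.373 for mt-Co2 and 2.33 for mt-Atp6, and within run 2 to -1.38 for mt-Co2, 0.495 for mt-Nd4 and 0.188 for mt-Atp6. That of mt-Nd1 turned to 0.0429 over all 13 genes and 0.0646 within run 1. The cause of these turns was not tested.

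With the replicate number as a block (replicate block), 0 members were called in each scope, while genes called numbered 64 over all cells, 3 in cluster 0, 22 in cluster 1, 2 in cluster 2 and 0 in cluster 4. Same-numbered libraries correlated at 0.257 and -0.0996 in their deviations from the diet mean (2 pairs). The deviations of the 2 HFD libraries mirror each other, so these values cannot decide whether libraries are paired. The numbers were not taken as pairs. Genes called over all cells were 5 in the main fit, 57 with run as a term, 47 with no filter, 9 with DESeq2, 3 with library totals and 0 to 54 with libraries left out. In cluster 1, with 52 in the main fit, they were 8 with no filter and 22 to 99 with libraries left out. Alternatives without effect on the cells of a cluster, and a minimum of 10 cells in clusters 1, 2 and 4 (too few libraries), gave no values. Depth limits what can be seen: 40 of 364 cells had no member UMI, cluster 3 held 583 member UMIs, and 5 libraries cannot pass 0.05 in the exact tests.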
